A study of Danio rerio with 31 samples.

Results

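The Rev-erb and ROR genes encode orphan nuclear receptors, and the set consists of nr1d1, nr1d2a, nr1d2b, roraa, rorab and rorb. Probes were assigned to these symbols through the accession that the scanner files give for each probe. Of the 6 genes, 5 had probes, among 11612 genes matched on the array, while none of the 43603 probes was matched to nr1d2b. The 5 genes were measured by 8 probes. These are A_15_P110290 and A_15_P187316 for nr1d1, A_15_P228446 and A_15_P156006 for nr1d2a, A_15_P179826 and A_15_P137016 for roraa, A_15_P104052 for rorab and A_15_P194111 for rorb. Where a gene had 2 probes, they are called the brighter and the dimmer probe after their mean signal over the time course, and counts of genes rest on the brighter one. The location of a probe within its transcript was not analysed here.

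Rev-erbs and RORs bind the same short DNA element, known as the ROR response element, and act on it in opposite directions. In mammals, Rev-erb proteins repress such genes together with the corepressor NCoR and the histone deacetylase HDAC3 and bind heme as their ligand, while ROR proteins activate them. The bmal1 gene, which encodes the partner of CLOCK in the circadian oscillator, is a classical target of both families in mammals, and CLOCK and BMAL1 in turn drive transcription of Nr1d1 through E-boxes.

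RNA was taken from pools of whole larvae of the WT AB strain and hybridized to Agilent one-colour arrays. In the time course, larvae raised at 14 h light and 10 h dark were kept from 5 dpf (days post-fertilization) either on in this cycle (LD) or in constant darkness (DD), and 1 dish of 40 larvae per condition was taken every 4 h from 0 to 44 h, giving 12 LD and 12 DD arrays. DD larvae therefore shared the light cycle of the LD larvae up to the start of sampling. The other 7 arrays, at 48 and 50 hpf (hours post-fertilization), comprised 2 arrays of uninjected WT embryos, 2 of embryos injected with a standard control morpholino and 3 labelled mitfa morphant, injected with a morpholino that blocks translation of mitfa, the regulator of melanophore fate. Each of the 5 morphant arrays held RNA of 40 animals. Time is given as circadian time (CT), where CT0 is lights-on and CT14 lights-off.

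All 8 probes lay well above background on all 24 arrays of the time course, and no spot was saturated. On these arrays 75.2% to 92.0% of spots were well above background, against 71.3% to 75.4% on the 7 arrays at 48 and 50 hpf. The 2 sets differed more in signal. The median ratio of spot signal to background per array was 7.3 to 12.0 in the time course, against 2.1 to 2.6 at 48 and 50 hpf. Precision is limited by how few arrays there are. Since each time point had 1 array per condition, errors come from the scatter around the 24-h curve, and it was not stated whether dishes came from separate clutches. The LD arrays lay on 3 slides and the DD arrays on 3 others, with 4 successive time points on each, so that LD against DD cannot be told apart from the slide. Because whole larvae were used, fewer cells of a type and less RNA per cell cannot be told apart. The time course held markers of muscle, liver, exocrine pancreas, neurons, erythrocytes, melanophores and photoreceptor or pineal cells, of which 21 of the 22 with a probe were detected.

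The genes fell into 3 kinds. nr1d1 oscillated over a range that few probes on the array exceeded, roraa and rorab oscillated at lower amplitude and later in the day, and nr1d2a and rorb did not pass the rhythm tests. Rhythms were tested in 2 ways. Fisher's g test asked whether the strongest period in the 12 values of a condition, whichever it was, stood out from the others. A 24-h cosine was fitted by limma to all 24 arrays, with Benjamini-Hochberg adjustment over 35412 probes at a limit of 5%. A gene counted as circadian in both conditions when the g test was below 0.5 in LD and in DD with a dominant 24-h period. It counted as oscillating in 1 condition when the g test was below 0.15 there, also with a dominant 24-h period. By their brighter probes, 2 of the 5 genes, nr1d1 and rorab, were circadian in both conditions, against 12.7% of all probes. In LD 3 genes were oscillating, against 16.8% of probes, and in DD 2 genes, against 10% of probes. The cosine test called the same genes, namely nr1d1, roraa and rorab in LD, against 11.9% of probes, and nr1d1 and rorab in DD, against 3.11%. Both of the latter therefore passed in each condition, as 2.87% of probes did.

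**Figure D1:**
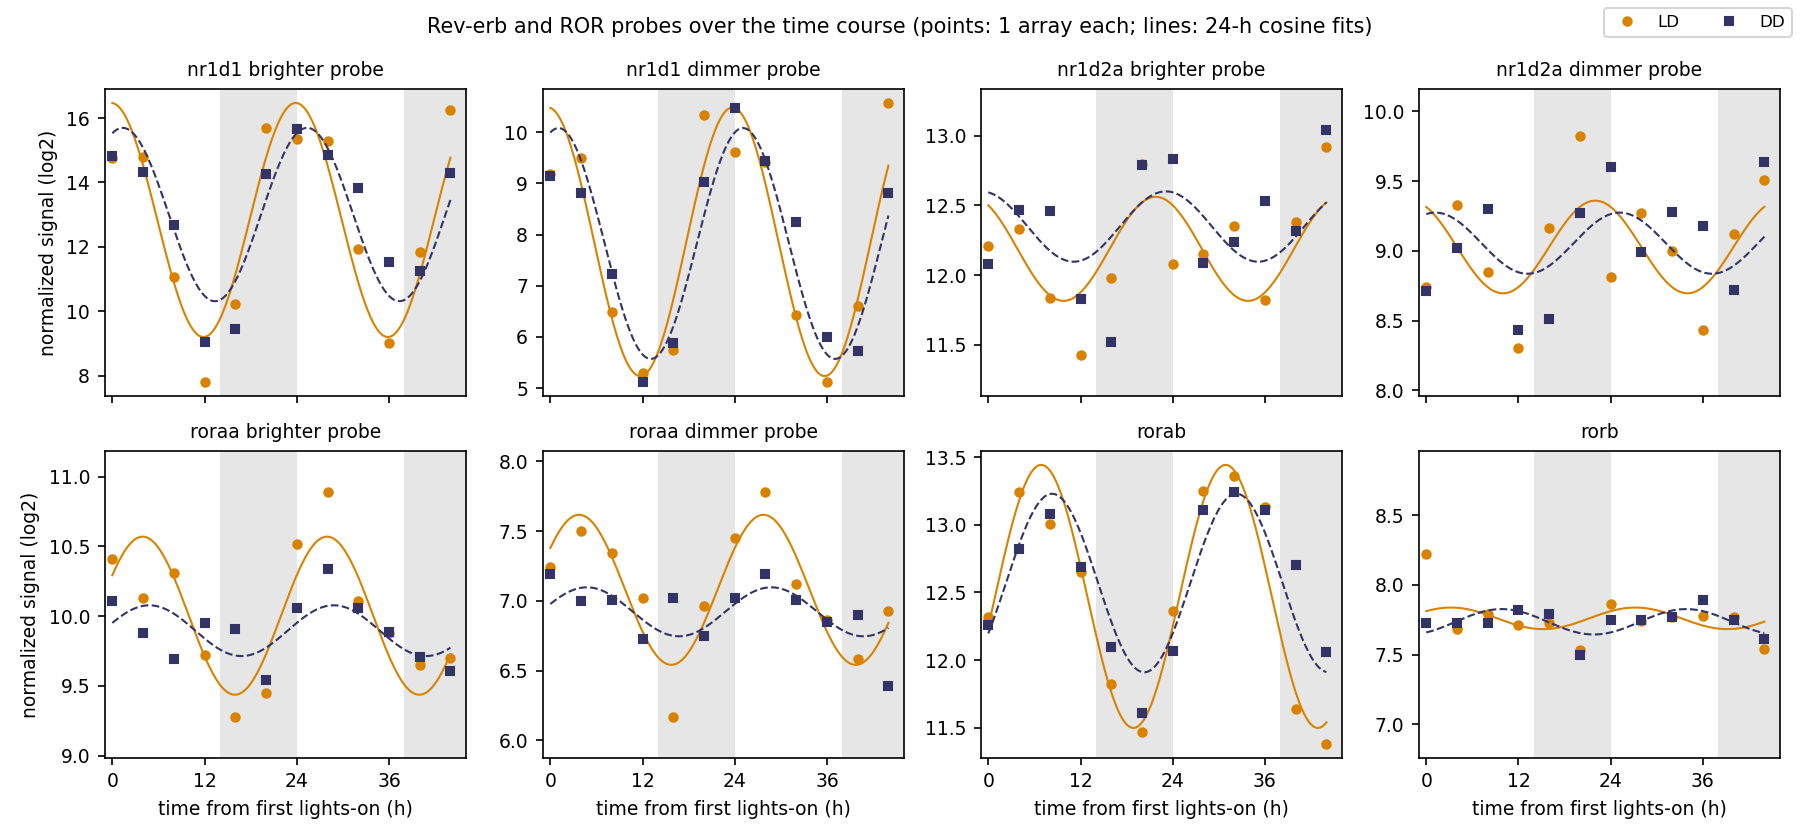
Normalized log2 signal (vertical axes) of the 8 probes against time in hours from the first lights-on, with orange circles for LD, dark squares for DD, lines for the fitted 24-h cosines and grey bands for night or subjective night. The nr1d1 panels span a far wider vertical range than the others, the roraa curves are flatter in DD (amplitude 0.18) than in LD (0.57 for the brighter probe), and the rorb points lie between 7.50 and 8.22.

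nr1d1 encodes Rev-erb alpha, the repressor that links the ROR response element to the core oscillator in mammals. In LD the log2 signal of its brighter probe was lowest at 12 h with 7.80, had a median of 13.34 and was highest at 44 h with 16.24, a range of 346-fold. In DD the lowest value was 9.05 at 12 h, the median 14.05 and the highest 15.67 at 24 h, a range of 98.2-fold. The lowest value of each condition thus came before lights-off and the high values around lights-on, but in the second DD cycle the lowest value was 11.24 at 40 h, after subjective lights-off, against 11.54 at 36 h. The fitted amplitude, which is the log2 distance from the mean to the peak, was 3.64 ± 0.42 (SE, 12 arrays) in LD, and 2 of the other probes had a larger one. In DD it was 2.69 ± 0.42 (SE, 12 arrays), exceeded by 3 probes. The adjusted p by limma was 3e-05 in LD and 0.00242 in DD, and the g test gave 0.00114 and 0.00527.

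The shape of the nr1d1 rhythm was not that of a smooth wave. In LD the brighter probe rose from a log2 signal of 10.23 at 16 h to 15.70 at 20 h, both read on the same slide, before lights came on. It then stayed between 15.30 and 15.70 through 28 h and fell to 11.93 at 32 h and 9.00 at 36 h. The dimmer probe did not stay level, with 10.34, 9.62 and 9.42 at 20, 24 and 28 h. On the next night the brighter probe rose again, from 11.85 at 40 h to 16.24 at 44 h. In DD the same probe went from 9.45 at 16 h through 14.26 at 20 h to 15.67 at 24 h, so the highest value came 4 h after the first steep step. For the brighter probe the cosine fitted to each 24-h cycle alone gave LD amplitudes of 3.85 and 3.42 in the first and the second cycle. Its DD amplitudes were 3.15 and 2.25. The dimmer probe went the other way, with 2.57 and 2.69 in LD and 2.15 and 2.39 in DD. A change of amplitude between the cycles therefore did not repeat between the probes.

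The dimmer nr1d1 probe followed the brighter one, with a Pearson r of 0.97 over the 24 arrays, which both probes share. Its log2 signal ranged from 5.12 to 10.57 in LD, with a median of 7.89, and from 5.12 to 10.48 in DD, with a median of 8.53. Its fitted amplitude was 2.62 ± 0.29 in LD (adjusted p by limma 1.5e-05) and 2.26 ± 0.29 in DD (adjusted p 3.25e-04; SE, 12 arrays each). The g test gave 1.28e-04 in LD and 6.35e-04 in DD. With normexp background correction the amplitudes of the dimmer probe were 1.62 in LD and 1.38 in DD, and both passed. The probes thus gave fitted peaks close together and different sizes, and the value of the gene's amplitude depends on which is read.

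nr1d2a encodes a Rev-erb beta, the partner of Rev-erb alpha in mammals. The brighter probe had log2 signals of 11.43 to 12.92 in LD, with a median of 12.18, and of 11.52 to 13.04 in DD, with a median of 12.39. The dimmer probe ranged from 8.30 to 9.82 in LD, with a median of 9.06, and from 8.43 to 9.64 in DD, with a median of 9.10. The LD and DD values overlap over most of their range for both probes. The fitted LD amplitude was 0.37 ± 0.15 for the brighter and 0.33 ± 0.16 for the dimmer probe (SE, 12 arrays), with adjusted p by limma of 0.223 and 0.309. In DD it was 0.25 ± 0.15 and 0.22 ± 0.16 (SE, 12 arrays), with adjusted p of 0.635 and 0.712. These amplitudes lay above the median of all probes, which was 0.21 in LD and 0.17 in DD, and the 2 probes moved together with a Pearson r of 0.86 over the 24 shared arrays.

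The strongest period of nr1d2a differed between its probes and between the conditions. In LD the brighter probe was highest at 20 and 44 h with 12.80 and 12.92, and it had lesser high values of 12.33 at 4 h and 12.35 at 32 h. The strongest period of the dimmer probe was 12 h in LD (g test 0.0900) and in DD (0.680). For the brighter probe it was 24 h in LD (0.461) and 16 h in DD (0.882). The 20 and 44 h arrays, where nr1d2a was high in LD, are also those with the 2 highest nr1d1 values in LD.

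roraa and rorab are both zebrafish counterparts of mammalian RORA, which encodes an activator through the ROR response element. The log2 signal of rorab was lowest in LD at 44 h with 11.38, had a median of 12.51 and was highest at 32 h with 13.36. In DD it was lowest at 20 h with 11.61, had a median of 12.70 and was highest at 32 h with 13.24. In LD low values lay in the night and high values from 4 to 12 h after lights-on on both days. The high LD values were 13.24, 13.01 and 12.65 at 4, 8 and 12 h and 13.25, 13.36 and 13.13 at 28, 32 and 36 h. In the second DD night rorab was at its DD median at 40 h, with 12.70, and fell to 12.06 at 44 h. The amplitude was 0.97 ± 0.09 in LD and 0.66 ± 0.09 in DD (SE, 12 arrays), with adjusted p by limma of 4e-06 and 9.9e-04 and g tests of 8.9e-05 and 0.00381. In LD 485 probes and in DD 752 probes had larger amplitudes.

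The brighter roraa probe had a log2 signal of 9.28 at its lowest, at 16 h, a median of 9.996 and 10.89 at its highest, at 28 h, in LD. In DD the values ran from 9.54 at 20 h through a median of 9.90 to 10.34 at 28 h, so that the DD values lay inside the range of the LD values. The fitted amplitude of this probe was 0.57 ± 0.09 for LD and 0.18 ± 0.09 for DD (SE, 12 arrays). The LD rhythm passed with an adjusted p by limma of 0.00125 and a g test of 0.0114, and the DD rhythm had an adjusted p of 0.543 and a g test of 0.836. The dimmer probe gave amplitudes of 0.54 ± 0.08 and 0.18 ± 0.08 (SE, 12 arrays) and adjusted p of 5.45e-04 in LD and 0.481 in DD. With a g test of 8.01e-04 in LD and 0.472 in DD it fell just inside the limit of 0.5 for a gene circadian in both conditions, so for roraa this call differed between the probes. With normexp background correction the LD amplitude of the dimmer probe was 0.27 and still passed, and with the first 24-h cycle alone neither roraa probe passed in LD (adjusted p by limma 0.134 and 0.104).

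rorb encodes a ROR that in mammals is found mostly in the brain, retina and pineal gland. Its log2 signal stayed between 7.53 and 8.22 in LD, with a median of 7.75, and between 7.50 and 7.89 in DD, also with a median of 7.75. The single high value was that of the first LD array, at 0 h. The amplitude was 0.08 ± 0.06 in LD and 0.09 ± 0.06 in DD (SE, 12 arrays), both below the medians of all probes, with adjusted p by limma of 0.650 and 0.702. The g test gave 0.249 in LD, where the strongest period was 12 h, and 0.374 in DD, where it was 24 h.

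The order of the peaks in LD was nr1d1, roraa, rorab. The fitted peak of nr1d1 was at CT23.9 for the brighter and CT23.7 for the dimmer probe, with SE of 0.442 and 0.416 h. A cosine fitted to linear in place of log2 signal put these nr1d1 peaks earlier, at CT22.8 and CT22.6. The peaks of roraa were at CT3.95 and CT3.74 by its brighter and dimmer probes (SE 0.631 and 0.580 h), and that of rorab at CT6.89 (SE 0.367 h). By the brighter probes nr1d1 peaked 4.09 h before roraa (95% interval of nr1d1 minus roraa -6.10 to -2.08 h) and 7.03 h before rorab (-8.35 to -5.71 h). The RORA counterparts were themselves 2.94 h apart, roraa leading (-4.59 to -1.29 h). None of these 3 intervals holds 0. In DD, where nr1d1 and rorab are the rhythmic pair, the peaks were at CT1.35 and CT8.29 and nr1d1 led by 6.94 h (-8.88 to -5.0 h). The interval between nr1d1 and rorab was thus 7.03 h in LD and 6.94 h in DD. Both are shorter than the 12 h of opposite phases. They do not stand for every Rev-erb or ROR gene. No probe was matched to nr1d4a and nr1d4b, Rev-erb genes outside the set that the study listed as circadian, so their phases were not fitted. rorca, a ROR gene outside the set, also passed the cosine test in LD and in DD. Its signal was low, with log2 values of 3.15 to 7.24 in LD and 4.31 to 6.89 in DD. In LD nr1d1 peaked 9.62 h before rorca (95% interval of nr1d1 minus rorca -11.07 to -8.16 h). In DD the 95% interval of this difference was -12.97 to -8.43 h, which holds opposite phase.

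The rhythmic genes also differed in amplitude on the log2 scale. In LD nr1d1 exceeded rorab by 2.66 (95% interval 1.59 to 3.74) and roraa by 3.07 (1.95 to 4.19), and rorab exceeded roraa by 0.41 (0.12 to 0.69). In DD nr1d1 exceeded rorab by 2.03 (1.04 to 3.03). The compared values are amplitudes of different probes on the same arrays, and the 2 nr1d1 probes themselves gave 3.64 and 2.62 in LD.

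**Figure D2:**
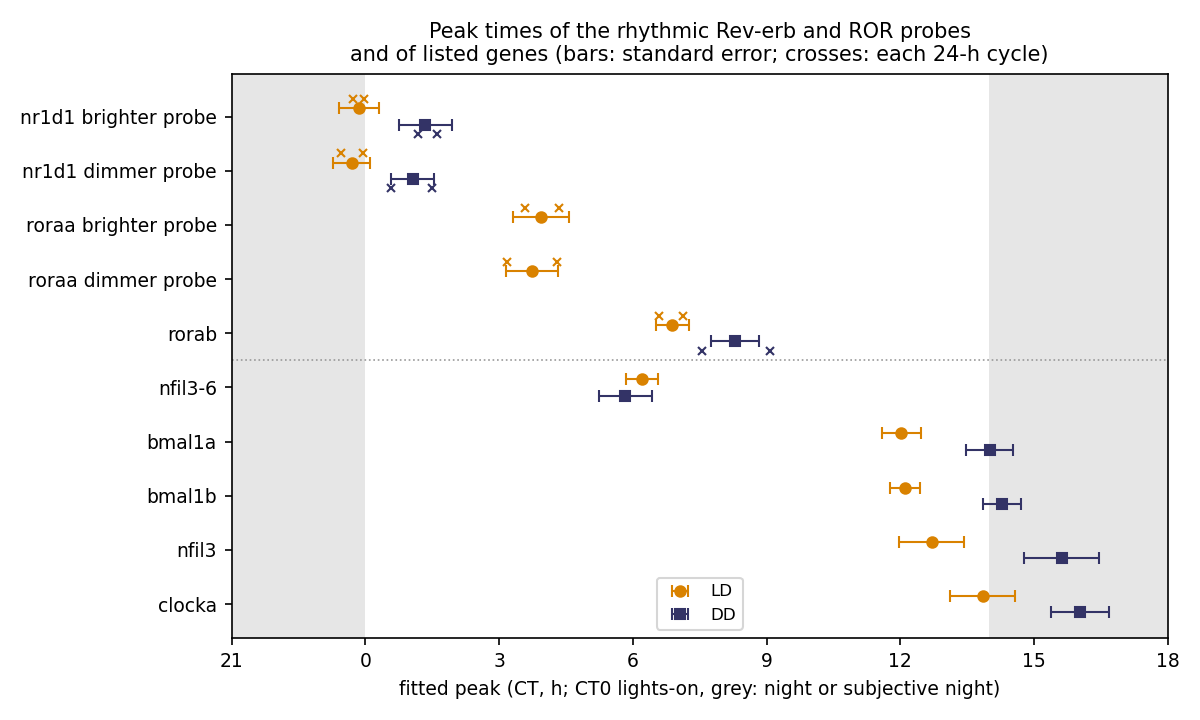
Fitted peak in circadian time (horizontal axis, h) of each probe called rhythmic by limma, in LD (circles) and DD (squares), with bars for the standard error and, for the Rev-erb and ROR probes, crosses for the peaks fitted to each 24-h cycle alone. In LD nr1d1 peaks at CT23.9, roraa at CT3.95 and rorab at CT6.89, while bmal1a and bmal1b follow at CT12.0 and CT12.1.

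The cycles taken one by one kept this order in LD. The brighter nr1d1 probe peaked at CT24.0 in the first and CT23.7 in the second cycle, the brighter roraa probe at CT4.35 and CT3.58, and rorab at CT6.58 and CT7.13. In DD the brighter nr1d1 probe peaked at CT1.17 and CT1.60, the dimmer one at CT0.587 and CT1.50, and rorab at CT7.54 and CT9.07. For rorab and for both nr1d1 probes the second DD peak was therefore later than the first. The DD standard errors were 0.597 h for the brighter and 0.484 h for the dimmer nr1d1 probe and 0.541 h for rorab. They belong to the fit over both cycles, and a shift between the cycles was not tested.

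The fitted peaks of the rhythmic members were later in DD than in LD. The difference was 1.49 h for the brighter nr1d1 probe (95% interval -0.05 to 3.04 h), 1.37 h for the dimmer one (0.04 to 2.70 h) and 1.41 h for rorab (0.05 to 2.77 h). The interval holds 0 for the brighter nr1d1 probe and its lower end lies close to 0 for the other 2. The size of the rorab shift depended on the setting. With the slide as a random block its peaks were at CT6.87 in LD and CT7.85 in DD. In the first cycle alone they were at CT6.58 and CT7.54, and in the second at CT7.13 and CT9.07. No interval is given for these settings. For roraa the DD rhythm did not pass, and the interval of the difference was -3.43 to 5.16 h for the brighter probe.

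**Figure D3:**
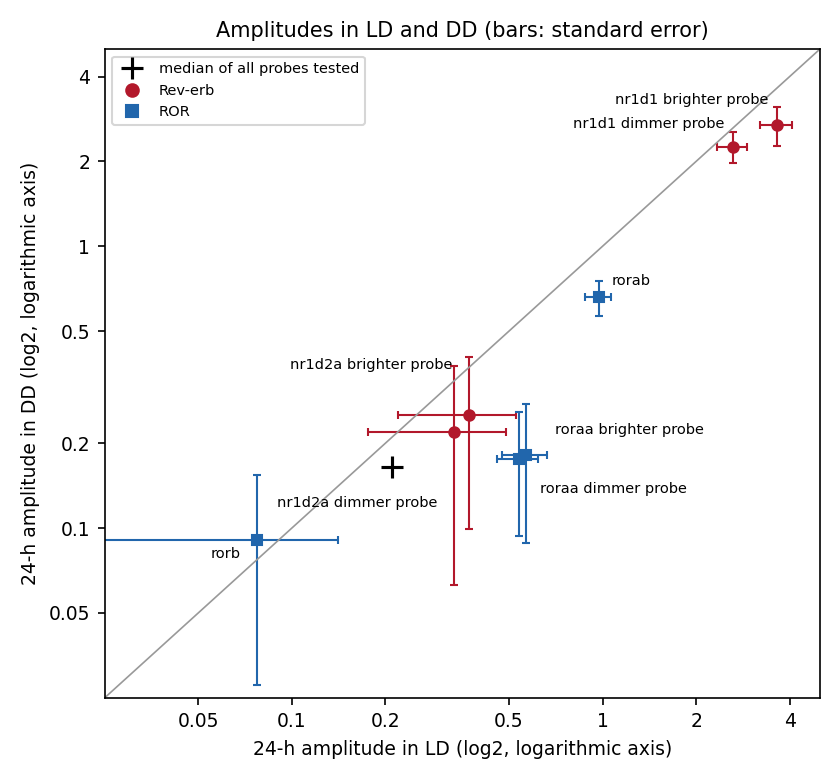
Fitted 24-h amplitude on the log2 scale in LD (horizontal axis) against DD (vertical axis), both axes logarithmic, with bars for the standard error, a line of equality and a cross for the median of all probes tested. Both nr1d1 probes lie far above the median of 0.21 in LD and 0.17 in DD, and the roraa probes lie farthest below the line of equality, at a DD amplitude of 0.18.

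Every probe except that of rorb had its lower fitted amplitude in DD, and no difference in rhythm passed the test across the array. The DD amplitude was 0.741 times the LD amplitude for the brighter and 0.860 times for the dimmer nr1d1 probe, and 0.679 times for rorab. It was 0.321 and 0.327 times for the brighter and dimmer roraa probes. The median over the 1018 probes called rhythmic in both conditions was 0.856. Since these probes had to pass in DD, this median can be set beside nr1d1 and rorab but not beside roraa. The LD minus DD amplitude was 0.38 (95% interval 0.11 to 0.66) and 0.36 (0.12 to 0.60) for the roraa probes and 0.31 (0.04 to 0.59) for rorab. For nr1d1 it was 0.94 (-0.30 to 2.18) and 0.37 (-0.47 to 1.21), intervals that hold 0 as well as sizes above those of roraa.

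The limma test of LD against DD rhythm, which takes amplitude and phase together, passed the adjusted limit for 0 of the 5 genes and for 0% of all probes, and 3.36% of probes had an unadjusted p below 5%. The unadjusted p was 0.0142 for rorab, 0.0261 and 0.0151 for the roraa probes, 0.0552 and 0.0897 for the nr1d1 probes, and between 0.375 and 0.762 for nr1d2a and rorb. The adjusted p was 1.00 for all 8 probes.

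**Figure D4:**
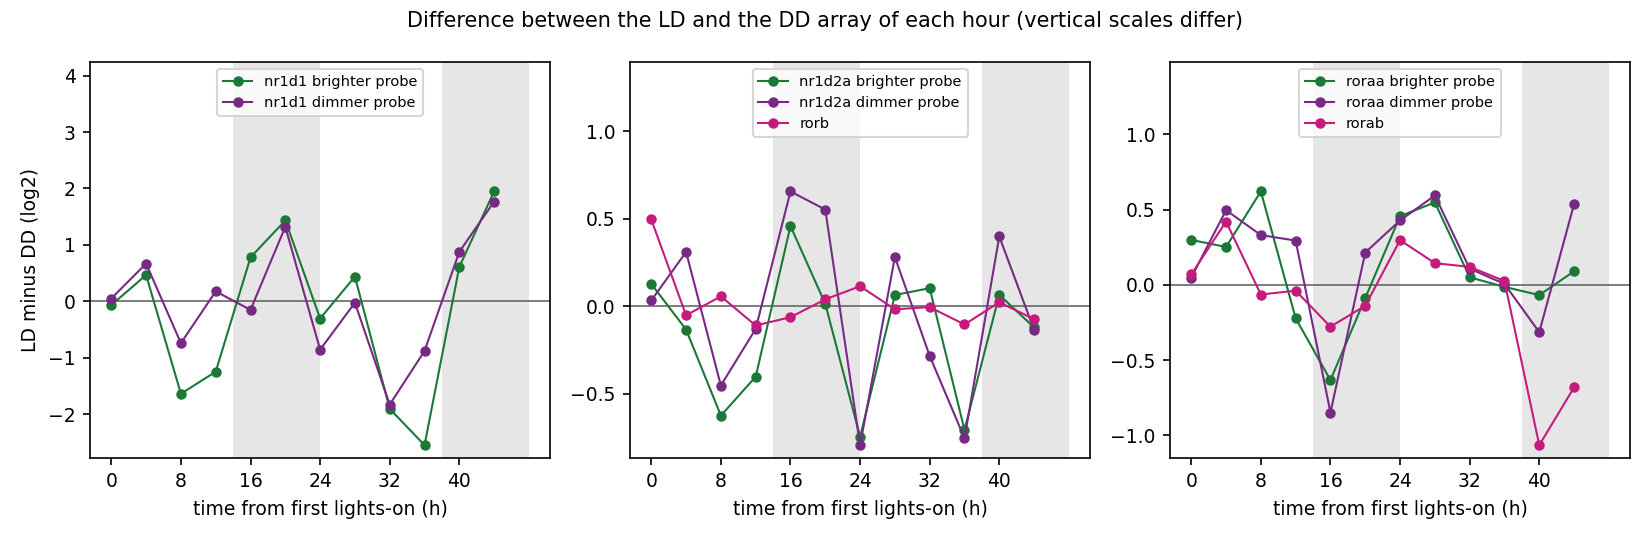
LD minus DD log2 signal (vertical axes, scales differ) at each sampling time in hours from the first lights-on, for nr1d1 in the left panel, nr1d2a and rorb in the middle and roraa and rorab in the right one, with night in grey. For the brighter nr1d1 probe the difference is -1.64 and -1.90 at 8 and 32 h and 1.43 and 1.95 at 20 and 44 h.

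Hour by hour, the LD minus DD differences of the brighter nr1d1 probe had the same sign on both days at every hour sampled. This counts the 0 h pair, up to which the DD larvae had shared the light cycle of the LD larvae. The differences were largest at 8, 12 and 20 h after lights-on. At 4 and 28 h they were 0.47 and 0.44, and at 16 and 40 h 0.78 and 0.61. At 8 h the brighter probe was lower in LD, with a log2 signal of 11.05 against 12.68 in DD, and at 32 h with 11.93 against 13.83. At the end of the light phase the values were 7.80 against 9.05 at 12 h and 9.00 against 11.54 at 36 h. Late in the night the order was the other way round, with 15.70 in LD against 14.26 in DD at 20 h and 16.24 against 14.29 at 44 h. Near lights-on LD and DD were close, with 14.76 and 14.82 at 0 h and 15.36 and 15.67 at 24 h. The dimmer probe had LD minus DD values of -0.74 and -1.83 at 8 and 32 h and of 1.32 and 1.77 at 20 and 44 h. Its difference was 0.18 at 12 h against -0.88 at 36 h, and 0.05 at 0 h against -0.85 at 24 h. It was 0.67 at 4 h against -0.02 at 28 h, and -0.15 at 16 h against 0.88 at 40 h. At these hours the sign did not repeat, so the dimmer probe did not follow the brighter one. Each of these pairs is 1 LD array against 1 DD array, and no test was made at single hours.

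For roraa and rorab the hours of difference were others. The brighter roraa probe was higher in LD at 24 and 28 h, by 0.46 and 0.55 on the log2 scale, and at 8 h, by 0.62, and it had 9.28 in LD against 9.91 in DD at 16 h. On the other day the differences were 0.30 and 0.25 at 0 and 4 h, 0.05 at 32 h and -0.07 at 40 h, so those at 8 and 16 h did not repeat. At 0 h the DD larvae had until then shared the light cycle of the LD larvae. That pair is therefore no repeat of the 24 h pair. The rorab difference was largest in the second night, with 11.64 in LD against 12.70 in DD at 40 h and 11.38 against 12.06 at 44 h. In the first night the rorab values were 11.82 against 12.10 at 16 h and 11.47 against 11.61 at 20 h, so this difference did not repeat in size.

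No member passed the test of the mean level over the 12 time points between LD and DD. The LD minus DD level was -0.17 ± 0.42 for the brighter and 0.03 ± 0.29 for the dimmer nr1d1 probe and -0.16 ± 0.15 and -0.03 ± 0.16 for the nr1d2a probes (log2, SE, 24 arrays). It was 0.11 ± 0.09 and 0.16 ± 0.08 for the roraa probes, -0.10 ± 0.09 for rorab and 0.02 ± 0.06 for rorb. The count was 0 of 5 genes in either direction, while 3.17% of probes were higher and 3.32% lower in LD, and the adjusted p by limma lay between 0.289 and 0.966. The brighter nr1d1 probe was higher in LD at 6 of the 12 hours, and the dimmer roraa probe at 10 of them.

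The genes whose pattern over the 24 arrays was most like that of a rhythmic member were found by the correlation of log2 signal among named genes, given as a description because all points share the arrays. For nr1d1 these were dbpb (Pearson r 0.89), a PAR bZIP transcription factor gene, the clock gene per1a (0.89) and mep1a.2 (0.89). Their fitted LD peaks were CT23.1, CT0.152 and CT23.7, each within an hour of that of nr1d1. For roraa they were ptpn11b (0.91), kcnip3a (0.88) and myo3a (0.87), with LD peaks from CT2.81 to CT3.98. For rorab they were lipca (0.96), the hepatic lipase gene, zgc:92161 (0.92) and the cryptochrome cry1b (0.92), with LD peaks at CT6.98, CT8.30 and CT5.99. None of the 3 members had another member among these genes.

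The genes that carry ROR response elements in other vertebrates or belong to the positive limb of the clock were taken from a list of 13, of which 8 had a probe. Of these 8, 7 were circadian in both conditions, against 12.7% of all probes, the exception being nfil3-4. The same 7 passed the cosine test in LD and in DD, as 2.87% of all probes did. The median amplitude of the 8 genes was 1.15 in LD and 0.96 in DD, against 0.21 and 0.17 over all probes. On the log2 scale nr1d1 stood close to opposite phase with bmal1a and bmal1b. Its LD peak lay 11.8 h from that of bmal1a (95% interval 10.3 to 13.3 h) and 11.7 h from that of bmal1b (10.3 to 13.2 h), and in DD the distances were 11.3 h (9.29 to 13.4 h) and 11.1 h (9.30 to 12.8 h). All 4 intervals hold 12 h.

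The peak of rorab lay between those of nr1d1 and bmal1. In LD rorab led bmal1a by 5.14 h (95% interval of the difference -6.32 to -3.97 h) and bmal1b by 5.22 h (-6.25 to -4.20 h), and in DD by 5.71 h (-7.60 to -3.82 h) and 5.99 h (-7.68 to -4.29 h). roraa led bmal1a by 8.08 h in LD (-9.71 to -6.45 h). nfil3 encodes a bZIP repressor that competes with the PAR bZIP activators for their sites, and its peak lay 11.2 h from that of nr1d1 in LD (8.47 to 13.8 h) and 9.73 h in DD (6.85 to 12.6 h). Its paralog nfil3-6 peaked at CT6.20 in LD, 0.68 h before rorab, an interval that holds 0 (-0.47 to 1.83 h), and in DD 2.46 h before it (0.55 to 4.36 h). In LD one nfil3 paralog thus peaked near rorab and the other 5.82 h after it.

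Rev-erb co-factors and the enzymes that make or degrade its ligand heme formed 2 further lists. Of 10 listed co-regulators, 3 had a probe, namely ncor1, hdac3 and the coactivator ncoa2, and 0 passed the rhythm tests, with a highest LD amplitude of 0.08. Of 14 genes of heme synthesis and breakdown, 13 had a probe. In LD 5 of them passed the cosine test, and 0 did in DD, while 3 were circadian in both conditions by the g test. The shares of all probes were 11.9%, 3.11% and 12.7%. The 5 were blvrb, fech, hmox1a, hmox1b and ppox, with LD peaks between CT6.04 and CT13.1. ppox and fech encode the last enzymes of heme synthesis, while hmox1a, hmox1b and blvrb act in heme breakdown. The median heme gene amplitude was 0.39 in LD and 0.26 in DD.

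At 48 and 50 hpf 7 of the 8 probes were well above background on all 7 arrays. The dimmer nr1d1 probe was not well above background on any of them and is not reported further. These arrays were normalized apart from the time course, so levels are compared within the 7 arrays only. The 48 hpf arrays lay on 1 slide and the 50 hpf arrays on another, so that age, the hour of the day and the slide cannot be told apart.

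**Figure D5:**
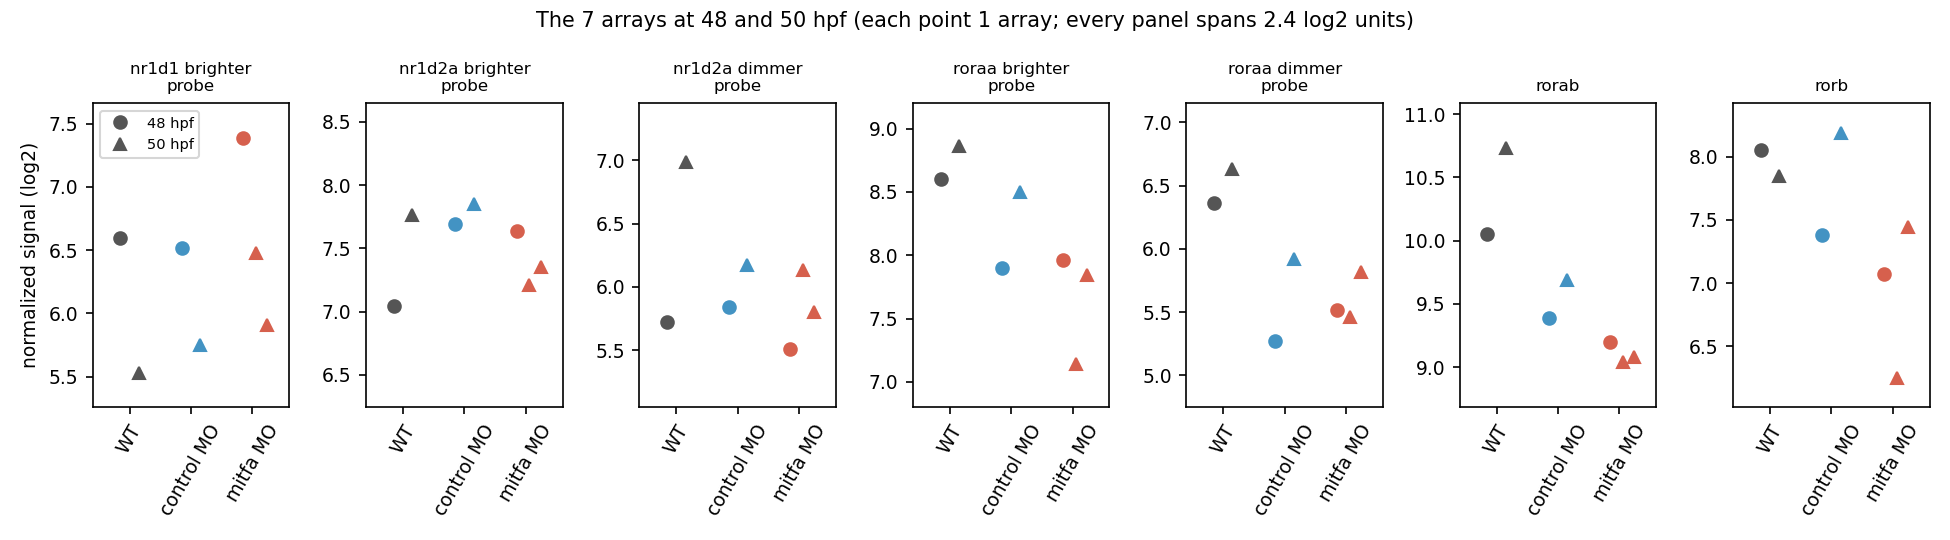
Normalized log2 signal (vertical axes, 2.4 units in every panel) of the 7 detected probes on the 7 arrays at 48 hpf (circles) and 50 hpf (triangles), for WT, control morphant (control MO) and arrays labelled mitfa morphant (mitfa MO). For nr1d1 every 48 hpf array lies above every 50 hpf array, and for rorab the 3 arrays labelled mitfa morphant lie below the 4 others.

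nr1d1 was lower on each 50 hpf array than on each 48 hpf array. Its log2 signal at 48 hpf was 6.60 in WT, 6.52 in the control morphant and 7.39 in the array labelled mitfa morphant. At 50 hpf it was 5.53 in WT, 5.75 in the control morphant and 6.48 and 5.91 in the arrays labelled mitfa morphant. Of all probes, 5.17% had this complete separation downward. The 50 minus 48 hpf difference was -1.03 ± 0.17 (SE, 7 arrays) with an unadjusted p by limma of 4.97e-04 and an adjusted p of 0.0856, so it missed the limit of 5%. Over the alternatives in processing the difference ran from -1.11 to -0.38, the latter with normexp background correction. In total 0 of the 5 genes passed, against 0.00656% of probes higher and 0.233% lower at 50 hpf, and 9.88% of probes had an unadjusted p below 5%. The other 4 genes had 50 minus 48 hpf differences of 0.07 to 0.24 by their brighter probes, with adjusted p between 0.865 and 0.969. The dimmer nr1d2a probe had 0.66 ± 0.22, with an adjusted p of 0.369.

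rorab was lower on the 3 arrays labelled mitfa morphant than on the 4 controls. Its log2 signal was 9.20 at 48 hpf and 9.04 and 9.08 at 50 hpf in the arrays labelled mitfa morphant, against 10.05 and 10.73 in WT and 9.39 and 9.69 in control morphants at 48 and 50 hpf. The groups do not overlap, which held for 11% of all probes in this direction. The difference was -0.86 ± 0.29 (SE, 7 arrays), with an adjusted p by limma of 0.135. The WT arrays lay above the control morphant arrays for rorab at both ages, and the difference was -0.43 against the control morphant arrays alone and -1.28 against the WT arrays alone (adjusted p 0.213 and 0.076).

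The other ROR genes had differences of similar size and overlapping groups. rorb had 7.07, 6.25 and 7.44 in the arrays labelled mitfa morphant, 8.05 and 7.85 in WT and 7.38 and 8.19 in control morphants. Its difference was -0.95 ± 0.30 (SE, 7 arrays; adjusted p by limma 0.120). The brighter roraa probe had 7.96, 7.14 and 7.84 in the arrays labelled mitfa morphant, 8.60 and 8.86 in WT and 7.90 and 8.50 in control morphants. Its difference was -0.82 ± 0.27 (adjusted p 0.131), and that of the dimmer probe -0.44 ± 0.30 (adjusted p 0.428). Against the control morphant arrays alone the dimmer probe had a difference of 0.01, and against the WT arrays alone one of -0.89. With normexp background correction the rorb difference was -0.56. The 2 Rev-erb genes had differences of 0.49 ± 0.39 for nr1d1 (adjusted p 0.50) and -0.18 ± 0.21 for the brighter nr1d2a probe (adjusted p 0.658).

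None of the 5 genes passed for the arrays labelled mitfa morphant against controls, while 0.757% of all probes were higher and 0.443% lower, and 22.5% had an unadjusted p below 5%. The 3 mitfa probes themselves were higher by 3.46 to 3.48 on the log2 scale in the arrays labelled mitfa morphant, and since the morpholino acts on translation the transcript level is no check of the labels. At 50 hpf alone the differences of the 3 ROR genes were -1.19 for roraa, -1.15 for rorab and -1.18 for rorb by their brighter probes, with 2 arrays on each side. At 48 hpf, with 1 array against 2, they were -0.29, -0.52 and -0.65.

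The summed levels of 3 marker lists also lay apart in these arrays, while few single markers passed the test. Such separation was not particular to marker lists. The summed log2 level of the positive limb and nfil3 genes was 11.96 to 12.01 in the arrays labelled mitfa morphant and 12.03 to 12.30 in controls. That of the co-regulators was 10.26 to 10.51 against 10.54 to 10.67. Among single probes, 11% lay below all controls in the arrays labelled mitfa morphant. The summed log2 level of the 5 detected photoreceptor and pineal genes was 9.90 to 11.1 in the arrays labelled mitfa morphant and 12.0 to 13.4 in controls. Among them, crx had a difference of -2.77 (adjusted p by limma 0.0532) and otx5 one of -1.38 (0.0520), while exorh and gnat2 had 0.34 and 0.25, and 0 of the 5 passed. The summed level of the 3 neuron markers was 12.0 to 12.3 against 12.6 to 13.0, with 0 of 3 passing (adjusted p 0.0618 to 0.265), and that of the 3 melanophore markers 13.6 to 13.7 against 14.4 to 14.8. Of the melanophore markers 2 of 3 passed, pmela and tyrp1b, with differences of -0.75 and -1.03 (adjusted p 0.0473 for both). The part of these cells in the ROR values was not tested. Between 48 and 50 hpf the summed levels of all 7 marker lists overlapped. The part of cell numbers in the nr1d1 difference between the ages was not tested.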

How the data were processed

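The intensity values deposited per array had been background-subtracted and detrended within the array by Agilent Feature Extraction, version 10.7.3.1 per the file headers. The authors also deposited log2 values, quantile normalized within each of the 2 sets of arrays, which served as an alternative. Intensities were log2 transformed, outlier spots set to missing, spots of a probe averaged, and each set of arrays quantile normalized by limma 3.58.1 in R 4.3.3. A probe entered the tests when at least 75% of a set's arrays read it well above background, which left 35412 probes in the time course and 30507 at 48 and 50 hpf. Of 43603 probes, 16795 were matched by accession to the RefSeq gene table. Samples were grouped by the condition, treatment and time in their labels. The g test ran over periods of 48, 24, 16, 12 and 9.6 h. Intervals (95%) of phase and amplitude come from least-squares fits. Age was tested with a term for the mitfa morpholino. Genes named in the text are the members, fixed lists and the 3 most alike named genes per rhythmic member. A few genes of the lists are left out of the text. The members and lists were chosen with earlier results of these data known. The alternatives were 75th-percentile scaling, the deposited values, normexp correction (offset 50), other detection filters, removal of a straight line, either 24-h cycle alone, the slide as a random block, the 8-h period in the g test, a linear scale, the other probe of a gene, each array left out, and other controls or terms at 48 and 50 hpf. The code was tested on simulated data.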

Additional observations from a re-analysis of the deposited data

How the results depend on the processing

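Each count of rhythmic genes was as reported under normexp correction, the deposited values, the other detection filters and removal of a straight line. The same held with the slide as a random block (correlation 0.502 within a slide) and with the 8-h period in the g test. Under 75th-percentile scaling the counts were as reported except for 3 oscillating genes in DD in place of 2. Sizes moved more: normexp correction gave LD amplitudes of 1.62 in place of 2.62 for the dimmer nr1d1 probe and 0.27 in place of 0.54 for the dimmer roraa probe. With 1 cycle only, 6 arrays per condition, the g test called 1 gene in LD and 1 in DD without the first and without the second cycle, in place of 3 and 2, and the DD cosine test called 0 in place of 2. The LD cosine test called 3 without the first cycle and 2, losing roraa, without the second, and the g test for both conditions called 3 and 2. Fewer arrays and periods enter these fits. On the linear scale nr1d1 led rorab by 8.08 h in LD (difference -8.08 h). Leaving out each array in turn gave 3 to 3 genes for the LD cosine, 2 to 2 for DD, and 0 to 0 for the LD against DD rhythm, the LD minus DD level, the arrays labelled mitfa morphant and the 2 ages. The lead of nr1d1 over rorab then ranged from -7.24 to -6.65 h in LD and from -7.49 to -6.43 h in DD. The labels give no replicate numbers that pair samples. With the LD and DD arrays of each sampling time as pairs, no gene passed for level, while 6106 probes did in place of 2298.

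Counts over all probes moved more. The LD cosine was called for 4207 probes, for 8341 without a straight line, 8425 with the slide as a block, and 8831 or 722 without the first or the second cycle. The DD cosine was called for 1102, and for 1934, 2061, 77 and 0. The level was called for 2298, and for 5538 and 115 with the line removed and the slide as a block. The g test called 4476 probes in both conditions and 10465 without the first cycle, when it called 6337 in place of 3529 in DD. For the arrays labelled mitfa morphant 366 probes were called, with 7 to 1726 over the alternatives, and for age 73, with 0 to 113. The causes were not tested.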
